A study of Mus musculus with 4 samples.

Results

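The gene Trp53, which encodes the transcription factor p53, and 9 genes that p53 is known to act on were followed through mouse hematopoietic stem and progenitor cells (HSPCs) from young and aged bone marrow. The 10 genes were taken by symbol from the 28692 genes counted in every sample. They were Trp53, Mdm2, Ccng1, Gadd45a, Bbc3, Bax, Eda2r, Phlda3, Zmat3 and Trp53inp1. All 10 passed the filter on low counts over whole pools, Eda2r only through its aged pools. The 4 samples were pools of Lin-Sca1+cKit+ Flt3- cells sorted from the bone marrow of male C57BL/6-CD45.2 mice and captured with 10x 3′ v2 chemistry, in which each transcript molecule is counted once through its unique molecular identifier (UMI). Young mice were 2 to 3 months old and aged mice 17 to 18 months old, and the labels name no transgene and no treatment. At the HalioDX facility (A), cells of 2 young and 3 aged mice were pooled by age, and at the TGML facility (B), cells of 3 young and 2 aged mice. Each age thus had 2 pools, each facility had 1 pool of each age, and single mice cannot be told apart within a pool.

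After removal of cells with extreme UMI totals, 14915 cells remained, with 5189 in young A, 2244 in young B, 3328 in aged A and 4154 in aged B. The median UMI count per cell lay between 5674 and 6719. The paper gives fewer sequencing reads per cell for young A and aged B than for young B and aged A. Levels are given in CPM, the UMIs of a gene scaled by all UMIs of the pool, cluster or cell group to a common total. The young and aged pools also differed in markers of other cell types and states. Igkc, an immunoglobulin light chain transcript of B lineage cells, was found in 32.6% of young A and 21.4% of young B cells. In aged A it was found in 96.5% and in aged B in 40.6% of the cells. The summed level of 10 plasma cell markers was 330 and 446 CPM in the young pools and 1974 and 4463 CPM in the aged pools, with none of the markers at 0. That of 10 stem cell (HSC) markers was 970 and 988 CPM in the young pools against 1873 and 1959 CPM in the aged ones, while 10 markers of DNA replication summed to 1163 and 1019 CPM in the young and 779 and 626 CPM in the aged pools. The part of these shifts in the results below was not tested. Slamf1, a surface marker of long-term stem cells, was at 9.02 and 10.3 CPM in the pools titled young and at 42.5 and 45.5 CPM in the pools titled old. Of all barcodes, 8 to 26 occurred in both pools of a given pair.

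p53 is kept scarce in unstressed cells because MDM2, the product of one of its own targets, marks it for degradation. DNA damage and other stresses release it from MDM2, and it then switches on genes that halt the cell cycle, repair DNA or start apoptosis. In the hematopoietic stem cell compartment p53 is known for holding cells in quiescence and for removing damaged cells. This control acts mainly on the protein, so the Trp53 transcript says little about p53 activity, whereas transcripts of its targets are the usual readout.

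p53 binds DNA as a tetramer at a pair of decamers, each called a p53 half-site. The half-site was searched by its name-defining consensus, in which both strands read alike, in 300 bases around each gene start (250 before and 50 after). The RefSeq promoter sequences used here gave 10 such windows for 8 of the 10 genes, on GRCm38.p6. Windows for Zmat3 and Trp53inp1 were not used here. A half-site stood in the window of 5 genes. It was found in 50.0% of the 10 windows, in 25.0% of 32 windows of 22 other p53 targets, and in 8.356% of all 32851 windows. No pair of half-sites stood in the windows of these genes. The median GC content of the windows was 62.83% for the 10 windows and 52.67% for all windows. The 60 bases around each half-site are shown because p53 recognizes such decamers, and capitals mark the half-site.
Mdm2 (chr10:117710910-117710969, minus strand, half-site from 186 bases before the start): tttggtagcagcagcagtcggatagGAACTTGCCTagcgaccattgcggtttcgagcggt
Ccng1 (chr11:40755437-40755496, minus strand, from 185 bases before the start): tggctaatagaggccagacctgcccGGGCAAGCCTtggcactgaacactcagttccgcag
Bax (chr7:45467065-45467124, minus strand, from 201 bases before the start): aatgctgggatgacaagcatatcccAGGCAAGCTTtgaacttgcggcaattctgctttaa
Gadd45a (chr6:67037413-67037472, minus strand, from 40 bases before the start): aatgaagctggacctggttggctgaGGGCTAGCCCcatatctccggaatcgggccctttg
Trp53 (chr11:69580259-69580318, plus strand, from 75 bases before the start): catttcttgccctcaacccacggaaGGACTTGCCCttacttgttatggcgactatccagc
A match is a description of letters and not of binding, and the p53 sites best known for Mdm2 and Gadd45a lie in introns outside such windows. Distances are from the RefSeq start of each window. The GENCODE gene of Gadd45a, whose coordinates are given below, starts further upstream, so its half-site lies inside that gene.

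The first question was whether p53 and its targets differed between young and aged HSPCs. None of the 10 genes passed the test over whole pools. By edgeR's quasi-likelihood test with facility as a block, 0 of 10 had a Benjamini-Hochberg adjusted p below 0.05, against 2.03% of the 13555 genes tested, and 1 of 10 had an unadjusted p below 0.05, against 16% of all genes. DESeq2 also called 0 of 10, against 4.01% of all genes. In 4 of the 10 genes (Trp53, Gadd45a, Phlda3 and Eda2r) the young and aged pools did not overlap, and the same held for 31.8% of all genes tested. The median aged minus young difference was 0.02 on the log2 scale for the 10 genes and 0.01 for all genes. The p-values rest on 2 pools of each age. With facility as a block, they reflect how far the age difference varied between facilities, with spread estimates shared across genes. In whole pools, fewer cells of a type and less RNA per cell cannot be told apart.

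**Figure D1:**
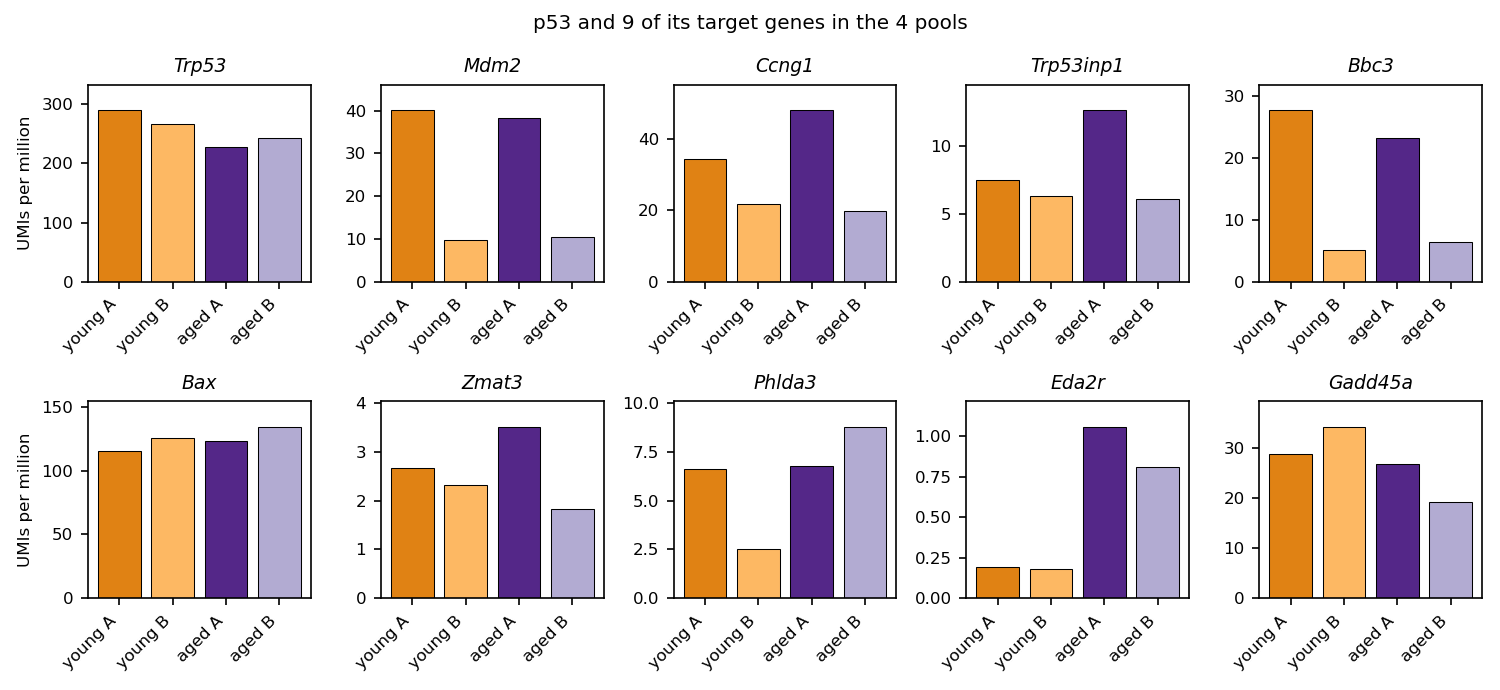
CPM (y axis, own scale for each gene and starting at 0) of p53 and 9 target genes in the 4 pools (x axis). Mdm2 and Bbc3 follow the facility, with A high and B low at both ages, while Eda2r is higher in both aged pools.

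Trp53 (chr11:69580359-69591873 on GRCm38, plus strand) was counted at 290 and 266 CPM in young A and young B and at 227 and 244 CPM in aged A and aged B. Both aged pools lay below both young pools. The difference was -0.29 ± 0.20 (SE) on the log2 scale, which did not pass the test (edgeR adjusted p = 0.596), and it was -0.08 without aged A. Mdm2 (chr10:117688875-117710758), whose product is the ubiquitin ligase that degrades p53, stood at 40.1, 9.76, 38.2 and 10.4 CPM in the same order. The 2 ages overlapped fully and the levels followed the facility instead. The age difference of Mdm2 was -0.05 ± 0.18 (edgeR adjusted p = 0.940).

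Ccng1 (chr11:40748552-40755311) encodes cyclin G1, which recruits a phosphatase to MDM2 and takes part in the control of the cell cycle. It was at 34.3, 21.8, 48.1 and 19.8 CPM in young A, young B, aged A and aged B. It was thus higher with age at facility A and not at facility B, and the difference of 0.13 ± 0.19 did not pass the test (edgeR adjusted p = 0.817). Gadd45a (chr6:67035096-67037457), a stress-induced gene of growth arrest and DNA repair, was at 28.8 and 34.3 CPM in the young pools and at 26.8 and 19.3 CPM in the aged pools. Both aged pools were lower, aged A only slightly below young A, and the difference was -0.52 ± 0.20 (edgeR adjusted p = 0.319). Without young B it was -0.30.

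The genes of cell death gave no shared direction. Bbc3 (chr7:16308393-16318205), which encodes the BH3-only protein PUMA, was at 27.6, 5.12, 23.2 and 6.34 CPM in young A, young B, aged A and aged B. As with Mdm2, the pools paired by facility. Bax (chr7:45461697-45466898), the effector that permeabilizes the mitochondrial outer membrane, varied little between pools, at 116, 126, 123 and 134 CPM. The age differences were -0.05 ± 0.24 for Bbc3 and 0.04 ± 0.17 for Bax.

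Eda2r (chrX:97333840-97377216), a receptor of the tumor necrosis factor receptor family, had the lowest counts and the widest difference. It was at 0.192 and 0.183 CPM in the young pools (7 and 3 UMIs) and at 1.06 and 0.811 CPM in the aged pools (22 and 27 UMIs). Both aged pools exceeded both young pools. The difference was 2.24 ± 0.59 on the log2 scale, with an unadjusted p of 0.0126 in the edgeR fit and an adjusted p of 0.160 (DESeq2 adjusted p = 0.574). Its young pools lay below the low-count filter, so Eda2r was tested only through the aged pools, where it was high. These p-values are therefore no independent support for the difference. Phlda3 (chr1:135766119-135769136), which encodes an inhibitor of AKT signaling, was at 6.61, 2.50, 6.78 and 8.77 CPM. The aged pools were higher, but aged A lay close to young A, and the difference was 0.81 ± 0.48 (edgeR adjusted p = 0.525). It was 0.30 without young B, 0.37 without aged B and 1.50 without young A.

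The remaining targets were not called either. Zmat3 (chr3:32334792-32366014), an RNA-binding regulator of splicing, was at 2.66, 2.32, 3.51 and 1.83 CPM, with the 2 aged pools outside the young ones on opposite sides. Trp53inp1 (chr4:11156431-11174379), a stress protein of autophagy and cell death that also activates p53, was at 7.49, 6.28, 12.6 and 6.10 CPM. Only aged A stood out, and the difference of 0.32 ± 0.23 (edgeR adjusted p = 0.618) became -0.06 without that pool.

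**Figure D2:**
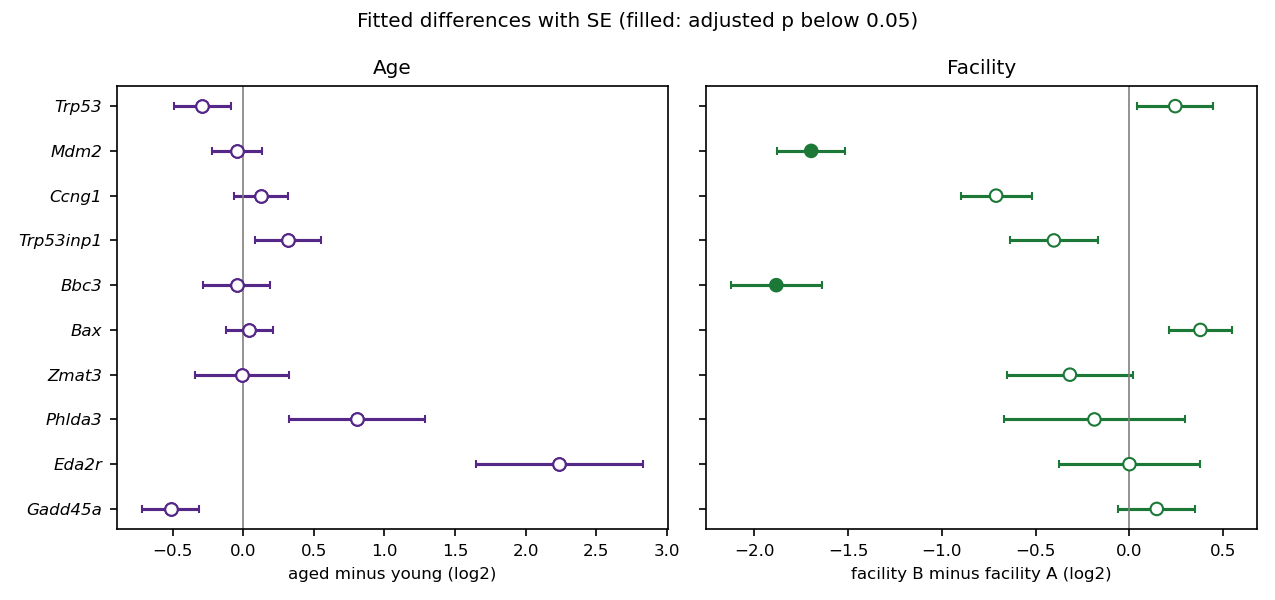
Fitted log2 differences with their SE for age (aged minus young, left) and facility (B minus A, right) in the 10 genes; filled points have an edgeR adjusted p below 0.05. No gene is filled for age, whereas Mdm2 and Bbc3 are filled for facility at -1.70 and -1.88.

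Of 29 other p53 targets, all were tested and 2 rose with age, where 1.6% of all genes rose. None of the 29 fell, where 0.428% of all genes did. DESeq2 called 5 of the 29, against 4.01% of all genes. Plk2, a polo-like kinase of the stress response, was at 3.92, 0.915, 58.9 and 7.21 CPM in young A, young B, aged A and aged B, a difference of 3.49 ± 0.27 on the log2 scale (edgeR adjusted p = 0.0140). Ak1, an adenylate kinase, was at 16.0 and 14.9 CPM in the young pools and 41.2 and 33.2 CPM in the aged ones (1.21 ± 0.16, edgeR adjusted p = 0.0384). Cdkn1a, which encodes the cell cycle inhibitor p21, was at 7.41, 10.1, 58.6 and 16.2 CPM and did not pass in edgeR (1.80 ± 0.54, adjusted p = 0.197) but did in DESeq2 (adjusted p = 0.0103). Plk3, another polo-like kinase, differed by 1.54 ± 0.45 (edgeR adjusted p = 0.190). The list's median difference was 0.16, against 0.01 for all genes. An unadjusted edgeR p below 0.05 was found for 11 of its 29 genes, against 16% of all genes. These 11 went both ways. Xpc, Psrc1 and Trp53cor1 had differences of -0.67, -0.84 and -0.77 on the log2 scale, and the rest of the 11 were positive. Within each facility the aged pool also had more of the immediate-early transcripts that mark the tgf cluster. Summed over 10 of these markers, their level was 1190, 442, 4123 and 962 CPM in young A, young B, aged A and aged B, so that aged B lay below young A, and their part in the result was not tested.

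Among the regulators and relatives of p53, 17 of 20 genes were tested and 0 were called by edgeR or DESeq2. In edgeR 1 had an unadjusted p below 0.05, against 16% of all genes. That gene was Chek1, a kinase of the DNA damage checkpoint, at 13.9 and 12.9 CPM in the young pools and 8.32 and 6.04 CPM in the aged ones (-0.97 ± 0.19, edgeR adjusted p = 0.0855). Trp53bp1 and Ppp1r13l, which encode p53-binding proteins, differed by 0.26 and 0.38 (edgeR adjusted p = 0.585 and 0.775). None of 11 BCL-2 family genes was called by either tool. Their widest difference in the same direction at both facilities was that of Bcl2, the founding inhibitor of apoptosis, at 67.0, 39.6, 109 and 77.2 CPM (0.78 ± 0.18, edgeR adjusted p = 0.129). Mcl1 and Bcl2l1, also inhibitors of apoptosis, differed by 0.46 and 0.38 (edgeR adjusted p = 0.477 and 0.510).

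In the list of paralogs of the 10 genes, 1 of 7 tested was called by edgeR, against 2.03% of all genes. Gadd45g, a paralog of Gadd45a, rose with age from 8.86 and 11.6 CPM to 80.3 and 71.5 CPM (2.85 ± 0.19, edgeR adjusted p = 0.0120). Gadd45b was at 7.44, 8.41, 26.1 and 13.0 CPM and did not pass (1.18 ± 0.30, edgeR adjusted p = 0.147). Edar, a relative of Eda2r, differed by 1.24 ± 0.38 (edgeR adjusted p = 0.208). Phlda2, the paralog of Phlda3, was at 36.4 and 36.7 CPM in the young and 19.9 and 23.9 CPM in the aged pools (-0.80 ± 0.18, unadjusted p = 0.00665 in edgeR, edgeR adjusted p = 0.118). Gadd45g and Gadd45b thus had estimates of the opposite sign to that of Gadd45a, and Phlda2 to that of Phlda3, but the difference between paralogs was not tested. Plk2, Ak1 and Gadd45g were the 3 genes called of 64 tested in these 4 lists together, against 2.03% of all genes. This count did not hold in every fit with a pool left out, as given at the end.

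The second comparison was between facilities, in the same fit, and was added after the levels had been seen. Mdm2 and Bbc3 were both lower at facility B, by 1.70 ± 0.18 and 1.88 ± 0.24 on the log2 scale (edgeR adjusted p = 0.0142 and 0.0202, with DESeq2 also calling both). These were 2 of 10 genes, where 7.6% of all genes tested differed between facilities and 7.44% were lower at B. Mdm2 was 3.24-fold and Bbc3 3.69-fold higher at facility A, with both A pools above both B pools. Ccng1 was 1.64-fold higher at A without passing the test (edgeR adjusted p = 0.0955). The facilities did not overlap in 6 of the 10 genes, against 53% of all genes.

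Of the other p53 targets, 5 of 29 were called, against 7.6% of all genes, and all were lower at facility B. This direction was shared by most called genes, since 1008 of the 1030 called over all genes were lower at B. Ppm1d, a phosphatase that turns p53 signaling off, was at 25.6, 3.23, 18.7 and 2.55 CPM in young A, young B, aged A and aged B (-2.67 ± 0.20, edgeR adjusted p = 0.00938). Btg2, an antiproliferative gene, was at 51.6, 12.9, 132 and 24.8 CPM (-1.96 ± 0.17, edgeR adjusted p = 0.0111). The rest of the called targets were Plk2, Plk3 and the BH3-only gene Pmaip1. In the other lists Sirt1 (1 of 17 regulators and relatives), Mcl1 (1 of 11 BCL-2 family genes) and Ccng2 (1 of 7 paralogs) were called, each lower at B. Ccng2, the paralog of Ccng1, was at 40.0, 10.7, 36.2 and 10.8 CPM. Immediate-early markers were likewise higher at A within each age, as given above. The facilities handled different mice in separate sorts, so capture site, mice and sort cannot be told apart, and a 3-pool fit called neither gene whichever pool was left out.

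The third question was where in the HSPC compartment these genes were expressed. Clustering without p53 pathway genes gave 14 clusters, of which 11 could be named from marker genes. They are called like the stem cell (HSC), replicating (rep), dividing (div), immediate-early (tgf) and interferon-responding (ifn) states and the cells primed toward neutrophils (pNeu), erythrocytes (pEr), megakaryocytes (pMk), mast cells (pMast), T and innate lymphoid cells (pL1) and plasma cells. The plasma-like cluster held 37 cells and had hemoglobin transcripts as well among its leading genes. Clusters 0, 4 and 5 were left unnamed. The HSC-like name rested on 3 of its 10 markers, the fewest allowed, and the other names on 6 to 10. Levels across clusters are a description with no test.

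Trp53 was highest in the pEr-like cells, at 418, 457, 479 and 465 CPM in young A, young B, aged A and aged B, with a mean of 455 ± 26.0 (SD, n = 4 pools). Every pool of this cluster exceeded every pool of every other cluster. The rep-like cells followed at 308 ± 21.3 CPM, and their range of 285 to 334 CPM overlapped that of the div-like cells at 232 to 310 CPM. Between the div-like cells and cluster 5 neighbors in the order overlapped. HSC-like cells were near the low end at 202 ± 21.1 CPM, and pL1-like and pMast-like cells at 188 and 180 CPM overlapped them. In the plasma-like cluster Trp53 was at 14.9 CPM, from 8 UMIs. In the pEr-like cells both aged pools lay above both young pools, opposite to the order over whole pools, and the same held in pMast-like cells. The fitted age difference in pEr-like cells was only 0.02 ± 0.24 on the log2 scale (edgeR adjusted p = 0.999). In pMast-like cells it was 0.24 ± 0.28, which did not pass either. Over whole pools 31.8% of all genes had ages that did not overlap, and no such share was taken within clusters.

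Gadd45a shared the pEr-like peak, at 80.4, 72.2, 87.6 and 90.1 CPM, with a mean of 82.6 ± 8.06. The next cluster, pMast-like, was at 37.5 ± 4.78 CPM and its highest pool was below the lowest pEr-like pool. Its lowest levels outside the plasma-like cluster were in pMk-like cells, at 11.6 ± 4.02 CPM, so the erythroid- and megakaryocyte-primed cells stood at opposite ends for this gene. Zmat3 was also highest on average in pEr-like cells, at 9.29 CPM, but its pools spread from 2.10 to 18.1 CPM on 34 UMIs.

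**Figure D3:**
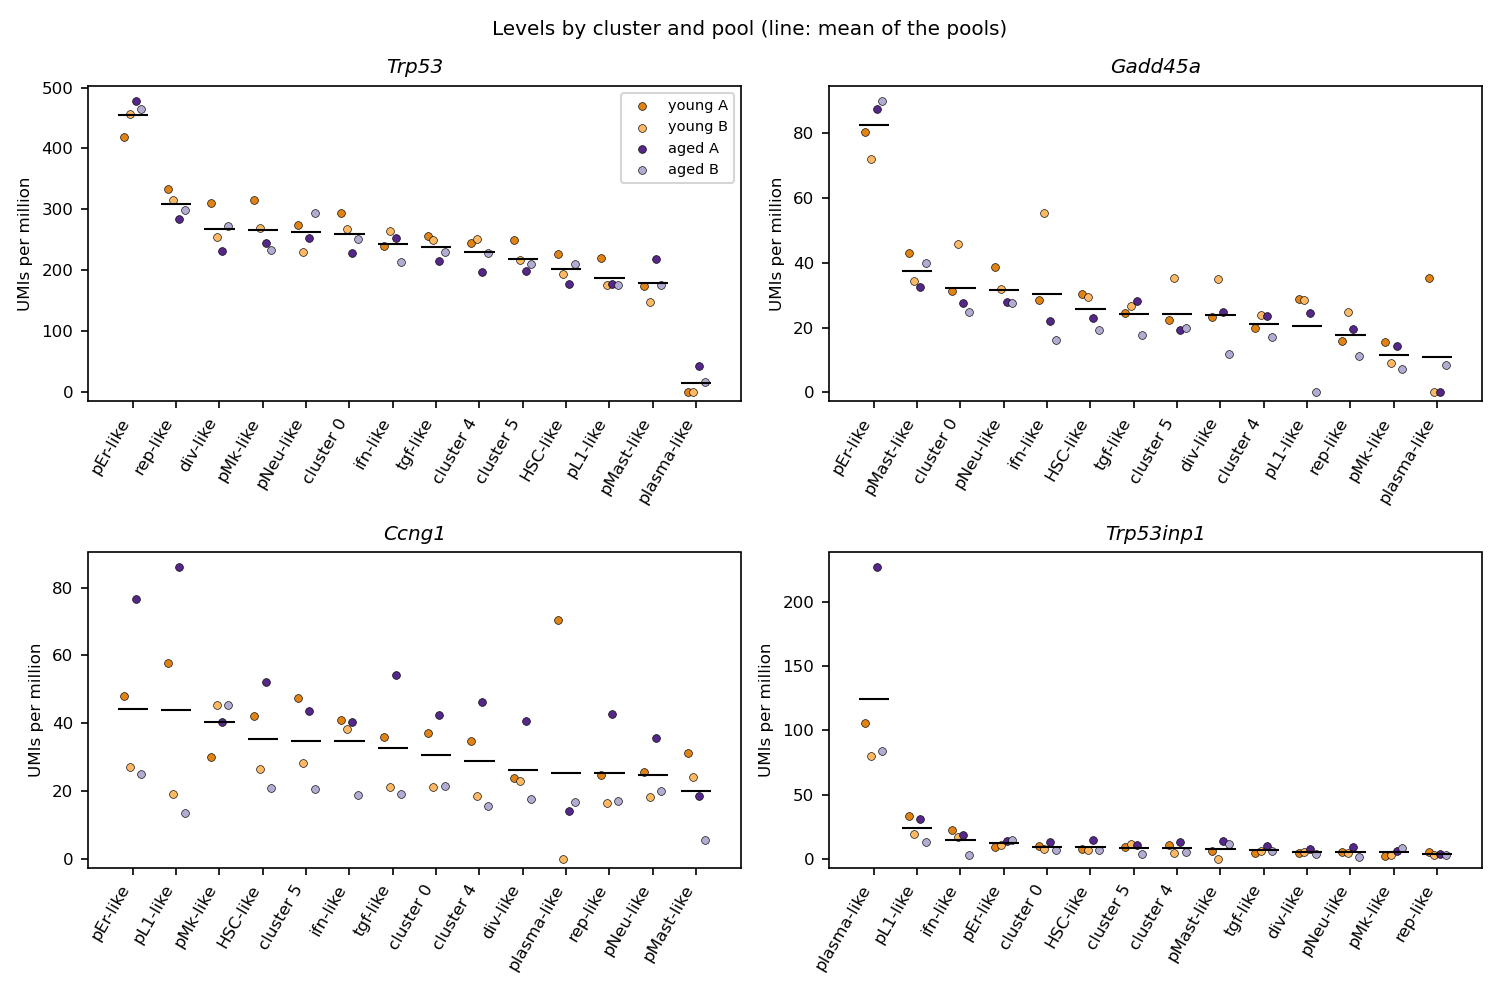
CPM (y axis) of Trp53, Gadd45a, Ccng1 and Trp53inp1 in each cluster (x axis, ordered by the mean of the pools, shown as a line), 1 point for each pool. Trp53 and Gadd45a are highest in pEr-like cells in all 4 pools, Ccng1 splits by facility within most clusters, and Trp53inp1 is highest in the plasma-like cells.

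Bax varied less, from a mean of 96.3 CPM in div-like cells to 196 CPM in pMk-like cells outside the plasma-like cluster. Its highest clusters, pMk-like (196 ± 56.4), pMast-like (182 ± 26.3) and pEr-like (172 ± 25.3), overlapped one another. The facilities differed within clusters too. In HSC-like cells Mdm2 was at 41.4 and 35.9 CPM in the A pools and at 8.16 and 10.7 CPM in the B pools. In the same cells Bbc3 was at 33.3 and 22.6 CPM in the A pools and 5.65 and 6.64 CPM in the B pools. In both genes the A pools lay above the B pools within this cluster too. Trp53inp1 was highest in the plasma-like cluster, at 124 ± 69.5 CPM on 47 UMIs, followed by pL1-like cells at 24.2 ± 9.55 CPM. Without cells that held 2 or more B cell markers its age difference was 0.23. Eda2r was not detected in 5 clusters with 1118 cells together, which allows a share of cells with a UMI of up to 0.268%.

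The genes whose levels over the 14 clusters were most like those of Trp53, by Pearson's r of log2 CPM among 5374 genes at 20 CPM or more, were Dap3 (r = 0.99), Ppid (0.99), Npm1 (0.99), Slc25a3 (0.99) and Tbl3 (0.99). The plasma-like cluster weighs heavily in these values, and over the other 13 clusters they were 0.90 to 0.94. For Ccng1 they were Erbb2ip (r = 0.85), Psen2 (0.83), Sirt2 (0.81), Zcchc6 (0.81) and Bnip3l (0.80). Among the 10 genes, Bbc3 (r = 0.70), Gadd45a (0.69) and Bax (0.68) had the highest r with Trp53 and Trp53inp1 the lowest (-0.86), but these values also rested on the plasma-like cluster. Over the other 13 clusters they were -0.26 for Bbc3, 0.33 for Gadd45a, 0.23 for Bax and -0.26 for Trp53inp1, and the highest were 0.69 for Zmat3 and 0.53 for Phlda3. The points share libraries, and clusters differ in depth.

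Within clusters, age differences were tested in the 12 clusters with at least 10 cells in every pool. Of 78 gene and cluster pairs, 0 were called by edgeR, against 0.8% of all pairs, and 3 had an unadjusted p below 0.05. These were Gadd45a in cluster 0, Bbc3 in cluster 4 and Mdm2 in pMk-like cells. Of all genes tested in these clusters, 1184 of 11151, 851 of 9362 and 222 of 5679 had an unadjusted p below 0.05. Clusters without such a pair had 1001 of 10578 (HSC-like), 967 of 11165 (tgf-like) and 947 of 10712 (rep-like). Cluster 5 had 982 of 9652, div-like cells 538 of 9300 and pNeu-like cells 292 of 7510. The pEr-like cells had 177 of 6432, pMast-like cells 141 of 3296 and ifn-like cells 326 of 4181. By the sign of the fit, Gadd45a was lower in aged cells in 9 of 10 clusters and Bbc3 in 8 of 9. The facilities did not always share this sign. At facility B, Bbc3 was higher in aged than in young cells in clusters 0 and 5 and in HSC-like, rep-like and pEr-like cells. At facility A, Gadd45a was higher in aged cells in cluster 4 and in tgf-like, rep-like and div-like cells. Trp53 was lower in 9 of 12, Ccng1 was higher in 9 of 11 and Phlda3 was higher in all 5 clusters where it was tested. The facilities did not share these signs throughout. At facility B, Ccng1 was lower in aged cells in cluster 4 and in HSC-like, tgf-like, div-like, pEr-like and, barely, pMk-like cells. Trp53 was higher in aged HSC-like and div-like cells at facility B and in aged ifn-like cells at facility A. At facility A, however, Phlda3 was lower in aged cells in rep-like cells (7.41 in young A and 5.01 CPM in aged A) and in cluster 5 (6.05 and 5.80 CPM). Clusters share the same 4 pools, so these counts are not independent of one another.

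A test of whether the age difference in a cluster departed from that in the other cells called 2 of 112 pairs, against 1.38% of all pairs. The count was thus close to the share of all pairs. The test also made false calls on simulated data, as given in the processing section. Bax in HSC-like cells was at 89.3 and 92.9 CPM in the young pools and at 114 and 124 CPM in the aged pools, and its age difference exceeded that of other cells by 0.39 ± 0.11 on the log2 scale (edgeR adjusted p = 0.0298). The HSC-like pools did not overlap by age, although the age difference within these cells did not pass its own test (0.37 ± 0.19, edgeR adjusted p = 0.630). Both aged pools also lay above both young pools for Bax in clusters 0, 4 and 5 and in pNeu-like cells. The share of all genes without overlap of the ages was not taken within clusters, and over whole pools it was 31.8%. Phlda3 in pMk-like cells was at 7.80, 3.03, 8.62 and 70.2 CPM in young A, young B, aged A and aged B. Its age difference exceeded that of other cells by 2.33 ± 0.61 (edgeR adjusted p = 0.0378), and 48 of the cluster's 59 Phlda3 UMIs came from aged B. Without aged B the excess was 0.09.

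**Figure D4:**
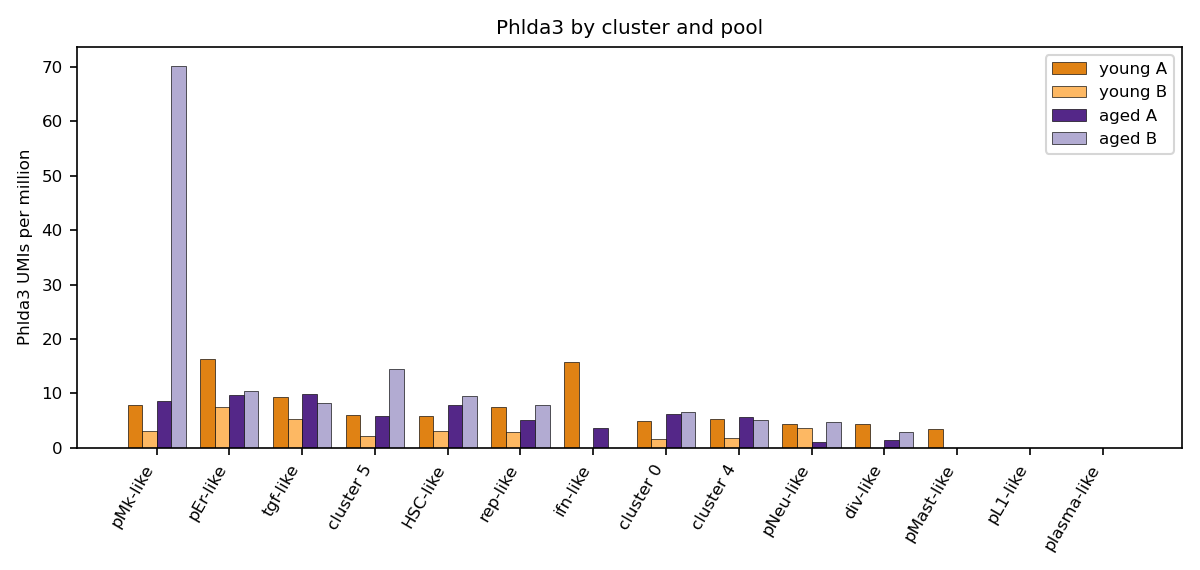
Phlda3 CPM (y axis, from 0) in each cluster (x axis, ordered by the mean of the pools) and pool (bars). The bar of aged B in pMk-like cells, at 70.2 CPM, stands above every other cluster and pool.

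The Phlda3 UMIs of aged B lay in few cells. Cells with 2 or more Phlda3 UMIs, a cut chosen after the levels had been seen, numbered 16 of 5189 in young A, 2 of 2244 in young B, 6 of 3328 in aged A and 29 of 4154 in aged B. In aged B these 29 cells (0.698%) held 112 of the pool's 292 Phlda3 UMIs. They were in 7 clusters, with 9 pMk-like, 6 tgf-like and 5 HSC-like cells, and the highest count in a cell was 11 Phlda3 UMIs. They were deeper than other aged B cells, with a median of 11861 UMIs against 6708, so their levels are compared in CPM. Young A and aged B, the pools with the most such cells, were also those sequenced with fewer reads per cell. No doublet caller was run, and the part of doublets, of depth and of reads per cell was not tested. With all such cells set aside, Phlda3 was at 5.46, 2.26, 6.12 and 5.46 CPM in young A, young B, aged A and aged B, where the ages overlap.

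In these 29 cells most other p53 targets were higher than in the remaining 4125 cells of aged B. The cells were chosen by Phlda3 and not by the other genes, and intervals are exact 95% Poisson intervals that cover counting error only. Of the other 9 genes followed, 7 had an interval above that of the remaining cells and 0 below, and the same held for 15 and 0 of the 29 further p53 targets. Over all 13555 genes, 2.5% had an interval above. Bax was at 459 CPM (388 to 539) against 131, with 150 UMIs. Ccng1 was at 113 CPM (79.7 to 156) against 18.9. Mdm2 was at 49.0 CPM (28.0 to 79.5) against 10.0.

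The low-count genes followed the same direction. Zmat3 was at 27.5 CPM (12.6 to 52.3) against 1.58, on 9 UMIs. Eda2r was at 24.5 CPM (10.6 to 48.2) against 0.576, so that 8 of the 27 Eda2r UMIs of aged B came from these cells. Trp53inp1 and Bbc3 were at 39.8 and 24.5 CPM against 5.76 and 6.16. The 2 exceptions were Trp53, at 211 CPM (164 to 267) against 244, and Gadd45a, at 15.3 CPM (4.97 to 35.7) against 19.3. The transcript of p53 was thus within counting error of the rest of the pool while most of its targets were above it.

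Among the further targets, Cdkn1a was at 508 CPM (434 to 591) against 11.3, and the 29 cells held 166 of the 539 Cdkn1a UMIs of aged B. Gdf15, a stress-induced secreted factor, was at 58.1 CPM (35.0 to 90.8) against 0.910. Psrc1 was at 129 CPM (92.6 to 174) against 11.5, and Aen, an apoptosis-linked nuclease, at 144 CPM (106 to 191) against 35.6. After every cell had been thinned to 3000 UMIs, 17 of the 29 cells held a Cdkn1a UMI, a share of 58.6% (exact 95% binomial interval 38.9% to 76.5%), against 2.69% of the remaining cells of the same pool. A Bax UMI was found in 22 of the 29 thinned cells, a share of 75.9% (56.5% to 89.7%) against 32.2%, and a Ccng1 UMI in 9, a share of 31.0% (15.3% to 50.8%) against 5.53%. Zmat3 was found in 4 and Eda2r in 3 of them, with lower bounds of 3.89% and 2.19% above the shares of 0.340% and 0.146% in the remaining cells. For Mdm2 the thinned share was 6.90% from 2 cells (0.846% to 22.8%) against 2.86%, so that the difference was not detectable at this depth, and the same held for Trp53inp1 with 2 cells and Bbc3 with 1. Trp53 was found in 14 cells, a share of 48.3% (29.4% to 67.5%) against 51.6%, and Gadd45a in 0, which allows a share of up to 10.3%, against 6.09%.

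**Figure D5:**
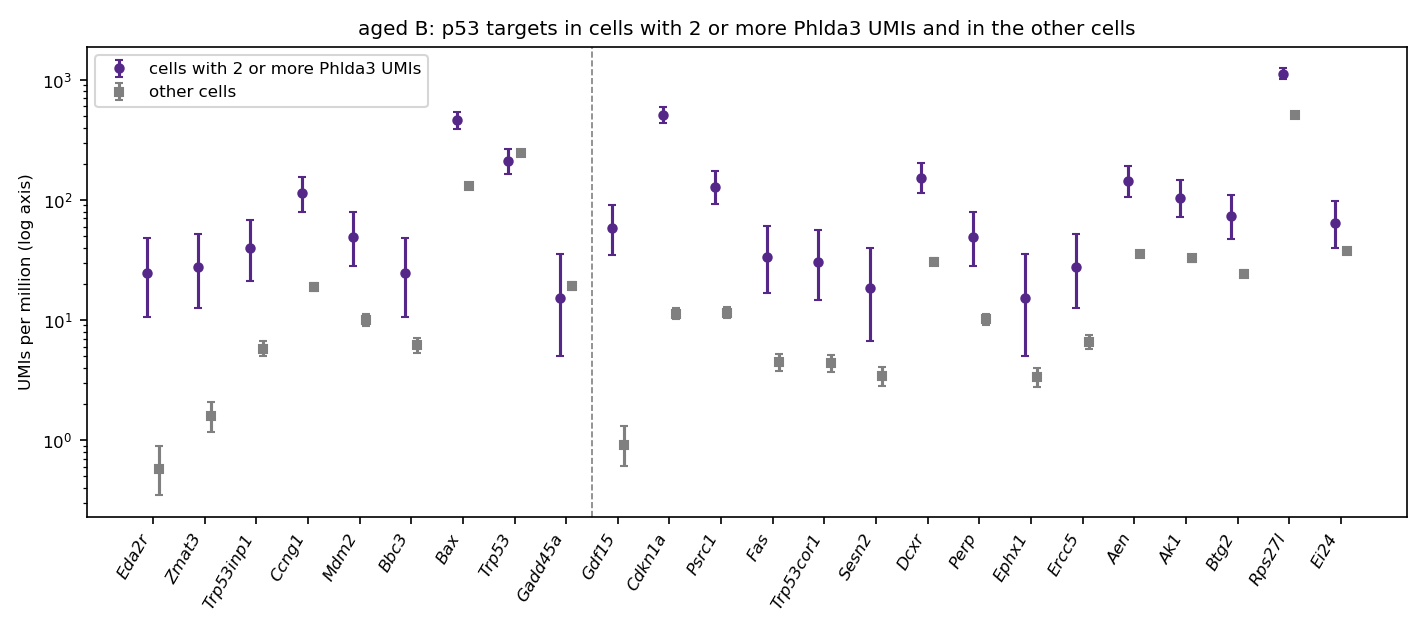
CPM (log y axis) with exact 95% Poisson intervals in the 29 aged B cells with 2 or more Phlda3 UMIs (circles) and in the other aged B cells (squares), for 9 of the genes followed (left of the dashed line) and for the 15 further p53 targets whose intervals lay apart (right). Trp53 and Gadd45a are the 2 genes on the left whose intervals meet.

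The pattern was not a feature of the pMk-like cells alone. In the 9 pMk-like cells Ccng1 was at 172 CPM (106 to 263) against 17.8 in the other 46 pMk-like cells of aged B, and Bax was at 589 CPM (461 to 742) against 194. In the 20 cells outside that cluster Ccng1 was at 78.2 CPM (44.7 to 127) against 18.9 and Bax at 381 CPM (301 to 476) against 130. In both settings 5 of the 9 genes had an interval above the rest and 0 below, where 1.05% of all genes had one above among the pMk-like cells and 1.84% outside them. In the 16 such cells of young A, Bax was at 242 CPM (172 to 330) against 115, Ccng1 at 118 CPM (70.9 to 184) against 33.9, Mdm2 at 80.6 CPM (42.9 to 138) against 39.9 and Cdkn1a at 136 CPM (85.4 to 206) against 6.83. There 4 of the 9 genes lay above and 0 below, against 2.47% of all genes above, and the fourth, Trp53inp1, rested on 5 UMIs in 1 cell. In the 6 such cells of aged A 1 of 9 lay above, against 1.25% of all genes. These are cells of single pools, so no test between ages was made on them.

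Cells with a Cdkn1a UMI form a wider set, which in aged B includes 17 of the 29 cells above after thinning. The 2 views are therefore not independent. After thinning, Phlda3 was found in 15 of 128 aged B cells with a Cdkn1a UMI (11.7%) against 1.99% of those without. It was found in 3.61% against 1.84% in aged A and in 3.03% against 1.83% in young A. In young B it was in 0% against 0.653%. Pearson's r of the 2 genes over cells was 0.22 in aged B and between -0.01 and 0.03 in the other pools. Over the 55 pairs of the 10 genes and Cdkn1a the highest mean r was 0.06, which in sparse counts is no finding.

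Cell cycle phase, called from gene pairs that include Trp53, Ccng1 and Gadd45a, was G1 in 88.3% and 89.9% of the young and 94.9% and 92.0% of the aged cells of A and B. Of the 7 genes outside these pairs, Phlda3 was at 6.44 ± 2.83 CPM in G1 and 2.84 ± 1.53 CPM in G2M cells, lower in G2M in all 4 pools. Its G2M levels rested on only 16, 2, 2 and 12 UMIs in young A, young B, aged A and aged B. Bbc3 had no shared direction, since it was lower in G2M in both A pools and higher in both B pools (6.03 against 4.94 CPM in young B and 6.86 against 6.30 CPM in aged B). Zmat3, Bax and Trp53inp1 were lower in G2M in all 4 pools as well, with Bax at 107 ± 13.2 CPM against 126 ± 7.16 CPM. In the same order of pools, G2M cells held only 4, 1, 3 and 3 Zmat3 UMIs and 19, 8, 9 and 8 Trp53inp1 UMIs. Within cells called G1, 0 of 10 genes were called with age by edgeR, against 3.3% of the 13471 genes tested there, and 2 had an unadjusted p below 0.05, against 16.2%.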

How the data were processed

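Single HSPCs were captured with 10x Chromium 3′ v2 reagents. The authors made the deposited UMI counts per gene and cell with Cell Ranger 2.2.0 on mm10 (GRCm38.p4 in the submitters' processing notes). The free-text descriptions of 2 samples name the other age, so samples were grouped by title. As in the study, cells beyond 2 SDs of a pool's mean log UMI count were removed; no doublet caller was run. CPM are a gene's UMIs scaled to a common total. Counts summed per pool were tested with edgeR 4.0.16 (quasi-likelihood, TMM, filterByExpr), age with facility as a block, since the labels give the facility (correlation of deviations between pools of a facility 0.576 over 13555 genes), adjusted over all genes at 0.05. DESeq2 1.42.0, other scalings, filters, cell sets and omitted pools were alternatives. Cells were integrated and clustered with Seurat 5.3.0 (resolution 0.5, pathway genes left out). A cluster was named when 3 or more markers of a list were raised in it. Phases came from cyclone in scran 1.30.0. Scripts were tested on simulated data, in which more calls were false than the nominal share. Over whole pools edgeR made 53 false calls beside finding 85 of 97 4-fold and 50 of 103 2-fold changes. DESeq2 made 27 false calls beside finding 81 and 25 of these. The test of whether the age difference of a cluster departed from that of other cells made 24, beside finding 63 of 100. Named genes were all 10 genes, every called gene of each list with its 3 widest differences of one direction at both facilities, and for Trp53 and Ccng1 the 5 genes of highest r. Further called genes and Phlda2, Ppm1d, Btg2, Psrc1, Aen, Gdf15, Xpc and Trp53cor1 were named after their values were seen. The 10 genes and the lists were chosen with earlier results of these data known. Gene coordinates are from GENCODE M21 and promoters from RefSeq, both on GRCm38.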

Additional observations from a re-analysis of the deposited data

Results flagged for a closer look

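The age difference of Bax in HSC-like cells exceeded that in the other cells by 0.39 on the log2 scale, by a test of the difference itself (edgeR adjusted p = 0.0298). Its values without 1 pool ranged from 0.31 to 0.43, and none of these passed the test. The age difference of Phlda3 in pMk-like cells exceeded that in the other cells by 2.33 (edgeR adjusted p = 0.0378). Without aged B it was 0.09, and without aged A it was 2.97 (edgeR adjusted p = 0.000318). This test took each pool as a block, pairing the cluster with the other cells of its pool. In a fit without that pool block neither passed, at 0.41 and 2.16. As given above, the count of these pairs was close to the share of all pairs called.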

How the results depend on the processing

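No gene of the 10 was called with age under any of 13 alternatives, and none within clusters under any of 7. Trp53, Gadd45a, Phlda3 and Eda2r kept their direction under every alternative run for them (13, and 12 for Eda2r, which was not tested in thinned cells), with Phlda3 from 0.30 to 1.50 and Gadd45a from -0.77 to -0.30. Eda2r passed the low-count filter only through its aged pools, so its kept direction is no independent support. The fits with a pool left out have no facility block and few residual degrees of freedom. Where the direction of a gene changed, the cause was not tested. Without cells with 2 B cell or plasma cell markers (390 cells left in aged A) the difference was 0.029 for Mdm2 and -0.050 for Bax, and without the UMI filter -0.020 for Bax. With a pool left out, Mdm2 ranged from -1.10 to 1.03, Ccng1 from -0.37 to 0.57, Trp53inp1 from -0.058 to 0.65, Bbc3 from -1.20 to 1.24, Bax from -0.20 to 0.26 and Zmat3 from -0.33 to 0.28. With no replicate block Zmat3 was at 0.0079.

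Of the 64 other pathway genes tested, 3 were called with age. The count was 0 without the replicate block, 6 in DESeq2, 8 without the low-count filter, 5 in cells called G1 and 0 to 4 with a pool left out. For all genes, 275 were called, with 0 without the replicate block, 543 in DESeq2, 774 without the low-count filter, 445 in G1 cells and 0 to 287 with a pool left out. The 2 genes called between facilities stayed 2 under 9 alternatives and were 0 with any pool left out, when Mdm2 ranged from -1.79 to -1.53 and Bbc3 from -2.07 to -1.63. The 2 pairs whose age difference departed from other cells became 0 without the pool block and at clustering resolution 0.3, 1 at resolution 0.8 and 0 to 1 with a pool left out. At resolution 0.3 no pMk-like cluster was formed, so Phlda3 in pMk-like cells could not be tested there.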
